A study of Mus musculus with 8 samples.

Results

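The genes described, called prefix 1700 genes here, are those whose symbol begins with 1700 and ends in Rik. These are mouse genes first known from full-length cDNA clones of the RIKEN institute, and the digits at the front of such a symbol name the clone library. The rule was applied to the symbols of a table of FPKM values (fragments per kilobase of transcript, divided by a size value for each library) and gave 341 of 23983 genes. A total of 1848 symbols of the table end in Rik, of which 110 share the prefix of 4933402N03Rik and 1397 have other prefixes. RNA was sequenced from unsorted testis tissue of C57BL/6J mice aged 12, 16 and 24 days (d12, d16, d24) and of adults, with 1 library per stage. The study's methods name a testis piece, fresh or frozen, and do not say which sample was which. By their labels the 4 stages differ in age only, no treatment or transgene is labelled, and the labels do not say from how many animals each library was made. The mice serve as a time course of the first wave of spermatogenesis.

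This prefix marks clones of a library made from adult testis, so the genes were named from RNA that this tissue contained. Many RIKEN genes received a functional name later, and many others are long noncoding RNAs that still carry the clone name. During the first wave, germ cells enter meiosis, then pass through the long pachytene stage, and become haploid round spermatids, which elongate into sperm as histones give way to transition proteins and protamines. In this wave, a testis of a young mouse lacks the later cell types, and these appear in order of age.

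In the RefSeq annotation of GRCm38.p6, 289 of the 341 genes were found under their own symbol and 50 under a newer name, and 2 (1700024F13Rik and 1700034F02Rik) were not found. Protein-coding transcripts are annotated for 128 genes, and 211 are noncoding, of which 199 are long noncoding RNAs and 12 pseudogenes. The median transcript length was 840 bases, against 2189 over all genes of the table, and the median predicted protein had 217 residues, against 410. Noncoding transcripts had a median of 704 bases and 3 exons, and coding transcripts 1057 bases and 5 exons. The genes lie on all autosomes and on the X chromosome, which holds 14, and none was found on the Y chromosome.

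Promoter windows, from 250 bases before to 50 bases after a transcript start, were found in RefSeq (GRCm38.p6) for 269 of the genes and for 17795 of all genes, and 214 of the 269 begin at the annotated start of the gene. The first set of sequences is shown because it holds the motif whose share in these windows was the largest multiple of its share over all windows, among the 4 motifs searched. The letters GTTGCCAT, part of the X-box bound by RFX factors, were present on either strand in 17 of 269 windows (6.32%), against 1.23% of all windows and 6.90% of the 87 windows of genes with the prefix of 4933402N03Rik. The 5 genes with this motif and the highest adult FPKM are given below, with the motif in capitals and 30 bases on each side, read along the strand of the gene.
1700010I14Rik (chr17:8988284-8988351, plus strand): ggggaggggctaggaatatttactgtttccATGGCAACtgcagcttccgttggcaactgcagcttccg
1700034J05Rik (chr6:146954416-146954483, minus strand): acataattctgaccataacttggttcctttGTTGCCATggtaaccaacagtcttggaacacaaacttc
1700026D08Rik, Cfap161 (chr7:83794843-83794910, minus strand): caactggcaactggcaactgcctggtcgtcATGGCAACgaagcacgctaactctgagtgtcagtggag
1700001K19Rik (chr12:110682649-110682716, minus strand): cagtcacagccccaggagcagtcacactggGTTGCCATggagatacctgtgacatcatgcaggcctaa
1700026L06Rik, Spaca9 (chr2:28699718-28699785, minus strand): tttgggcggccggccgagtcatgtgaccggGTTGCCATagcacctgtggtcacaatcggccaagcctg
In 1700010I14Rik and Cfap161 the motif reads as ATGGCAAC, the same letters on the other strand. All 18 matches in the 17 windows begin before the start, the nearest at 5 and the farthest at 169 bases from it. Those that begin 5 or 6 bases before the start run across it.

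Of the genes with this motif in the list above, 1700010I14Rik had 4.21, 102.5, 596.4 and 675.3 FPKM at d12, d16, d24 and in adult testis. Cfap161, a protein of cilia and flagella, had 1.97, 13.5, 123.1 and 163.7 FPKM. 1700034J05Rik had 1.22, 2.56, 106.4 and 207.5 FPKM. These 3 genes were at or above 2 FPKM by d16. 1700001K19Rik had 0.0837, 0.0839, 20.8 and 162.2 FPKM. Spaca9, a protein of the sperm acrosome and flagellum, was listed at 0 at d12 and had 1.31, 28.9 and 119.5 FPKM at the later stages. All 5 were highest in the adult library, but they reached 2 FPKM at different stages. The letters TAACNG, a site of MYB factors, were in 33.8% of the windows, against 21.3% of all. The letters TGACGTCA, the full cAMP response element, were in 5 windows (1.86%), against 2.39% of all. The shorter TGACG, which also lies inside the full element, was in 19.7%, against 24.4%. A match is a description of the letters and shows no binding.

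**Figure D1:**
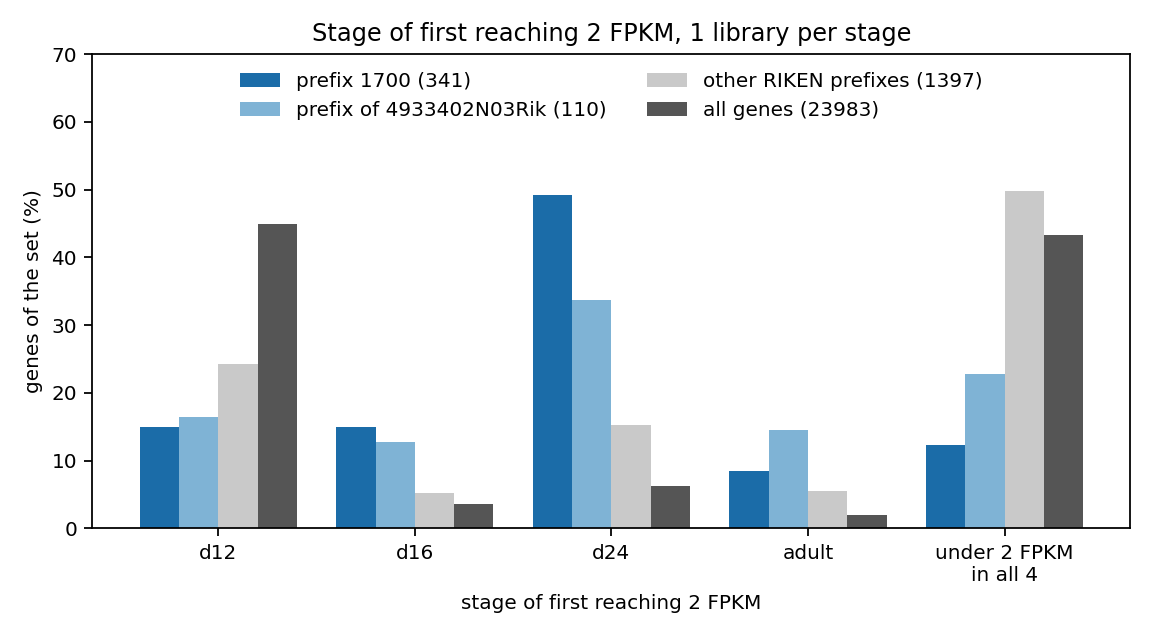
Share of genes (y axis, percent of each set) by the stage at which they first reached 2 FPKM (x axis), for prefix 1700 genes, genes with the prefix of 4933402N03Rik, genes of other RIKEN prefixes and all genes, with 1 library per stage. Of the prefix 1700 genes, 49.3% first reached 2 FPKM at d24, against 6.30% of all genes.

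Nearly 1 in 2 of the prefix 1700 genes first reached 2 FPKM at d24. The threshold of 2 FPKM is the one used in the study's methods. First reaching means at least 2 FPKM at a stage and less at every earlier stage. At d12 51 genes (15.0%) were already there, against 44.9% of all genes. At d16 51 genes (15.0%) followed, against 3.55% of all genes. At d24 168 genes (49.3%) were added, against 6.30% of all genes. In adult testis a further 29 genes (8.50%) reached it, against 1.98% of all genes. The remaining 42 genes (12.3%) stayed under 2 FPKM in all 4 libraries, against 43.3% of all genes. Relative to all genes, these genes were thus fewer among the early and the silent genes and more frequent at each later stage. In whole tissue, fewer cells of a type and less RNA per cell cannot be told apart.

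Counted per library, 51 genes had at least 2 FPKM at d12, 97 at d16, 269 at d24, then 296 in the adult library. Over all genes the share at or above 2 FPKM was 44.9% at d12, 45.5% at d16, 49.0% at d24, then 49.7% in the adult library. The median FPKM of the 341 genes was 0.0943 at d12, 0.269 at d16, 11.0 at d24, then 26.6 in the adult library, while the median of all genes lay between 1.16 and 1.95. Their values summed to 0.203% of all FPKM at d12, 0.668% at d16, 2.68% at d24, then 4.71% in the adult library. The genes were therefore a small part of the young libraries and a larger part of the older ones. Of 317 genes with at least 1 FPKM in any library, 278 (87.7%) were highest in adult testis, 32 at d24, 3 at d16 and 4 at d12. Over the 15219 such genes of the whole table, the shares were 36.8% in adult testis, 17.3% at d24, 10.5% at d16 and 35.4% at d12. No stage has a second library, so no test against the spread between animals could be made, and all folds compare single libraries.

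The step from d16 to d24 held the largest changes. Changes were counted as at least 2-fold on the log2(FPKM + 0.1) scale among genes with at least 1 FPKM at either stage, a scale on which changes of low genes are understated. From d12 to d16, 91 of 130 genes were at least 2-fold higher and 3 lower, against 11.7% and 4.22% of all genes. From d16 to d24, 262 of 293 were higher and 0 lower, against 27.8% and 9.13%. From d24 to adult, 180 of 315 were higher and 2 lower, against 13.4% and 2.08%. A gene that passed this filter only through the later stage had to be higher there, so these counts are a description, and the first step depends on it most. Over all 341 genes with no filter, 122, 289 and 188 were at least 2-fold higher over the 3 steps and 33, 0 and 3 lower. The median log2 changes were then 0.00195, 3.59 and 1.11, and those of all 23983 genes 0 at each step.

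Cell type markers moved over the same steps. The summed FPKM of 6 markers of pachytene spermatocytes was 49.6, 875.0, 3832 and 4559 at the 4 stages. That of 6 round spermatid markers was 3.19, 4.85, 397.5 and 1041, and that of 6 elongating spermatid markers was 13.1, 4.42, 2424 and 26742. Spermatogonial markers summed to 289.0 at d12 and 62.1 in adult testis, and Sertoli cell markers to 792.0 at d12, 460.6 at d24, then 491.6 in the adult library. Most of the Sertoli sum was Clu, and the other 5 markers summed to 85.2 at d12, 41.0 at d24, then 35.0 in the adult library. Early meiotic markers summed to between 882.4 and 1729, Leydig cell markers to between 105.3 and 605.2, myoid cell markers to between 151.7 and 307.6 (to 248.1 at d12 and 82.6 in adult testis without Actg2), and the 5 macrophage markers listed to between 29.4 and 39.7. Markers of epididymal epithelium summed to at most 2.28, with Lcn5 and Lcn8 at 0 in every library. The round spermatid markers Acrv1, Spaca3 and Catsper3 were listed at 0 at d16, when Spaca1 had 3.53, Tssk1 1.21 and Izumo1 0.107 FPKM. The Sertoli marker Amh was listed at 0 in adult testis. The part of these changes in cell makeup in the values of the prefix 1700 genes was not tested.

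**Figure D2:**
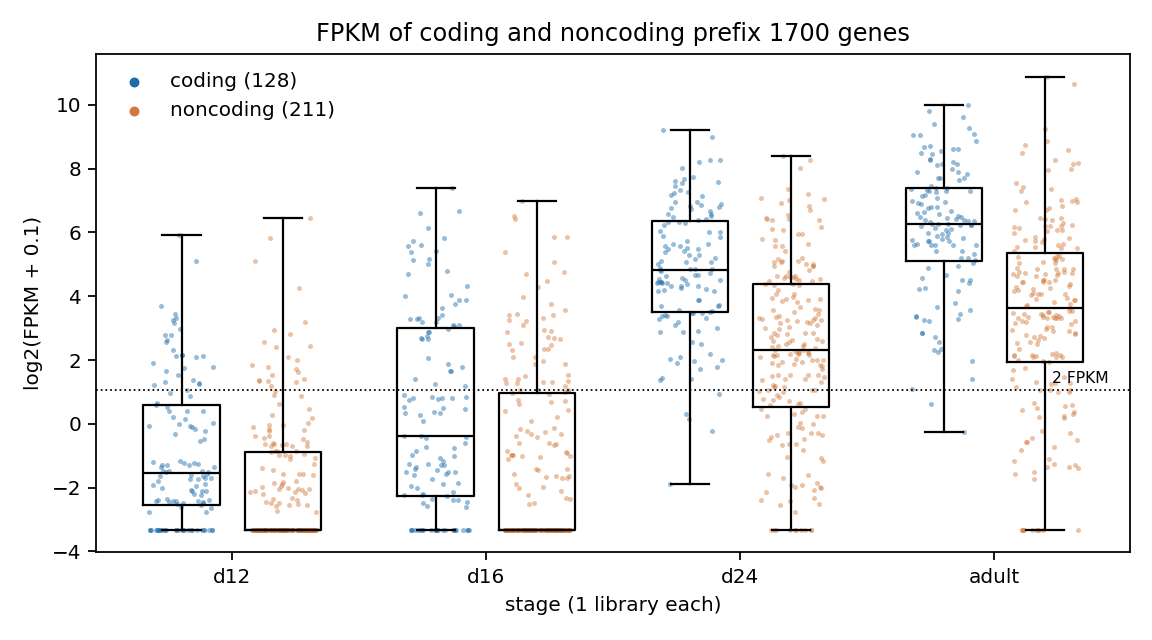
log2(FPKM + 0.1) of 128 coding and 211 noncoding prefix 1700 genes (y axis) in the libraries of d12, d16, d24 and adult testis (x axis). Points are genes, boxes span the lower to the upper quartile with the median, whiskers reach the lowest and highest gene, and the dotted line marks 2 FPKM. Both classes were higher at d24 and in adult testis than before, and the coding genes had the higher medians.

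Coding genes were the higher class at each stage. Their median FPKM was 0.245 at d12, 0.670 at d16, 28.0 at d24, then 77.0 in the adult library, while that of noncoding genes was 0 at d12 and d16, 4.90 at d24, then 12.3 in the adult library. Among all genes of the table the medians in adult testis were 2.76 for coding and 0 for noncoding genes. Of the coding genes, 73 of 128 first reached 2 FPKM at d24, and only 2 never did. Of the noncoding genes, 95 of 211 first reached it at d24, 25 in adult testis and 40 never. Reaching 2 FPKM only in adult testis or not at all was thus more frequent in the noncoding class. The same held over the whole table, where 1.59% of coding and 4.34% of noncoding genes first reached it in adult testis and 38.4% and 71.9% never did. The 12 pseudogenes had an adult median of 78.8 FPKM, close to that of the coding genes, and 11 of them reached 2 FPKM.

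**Figure D3:**
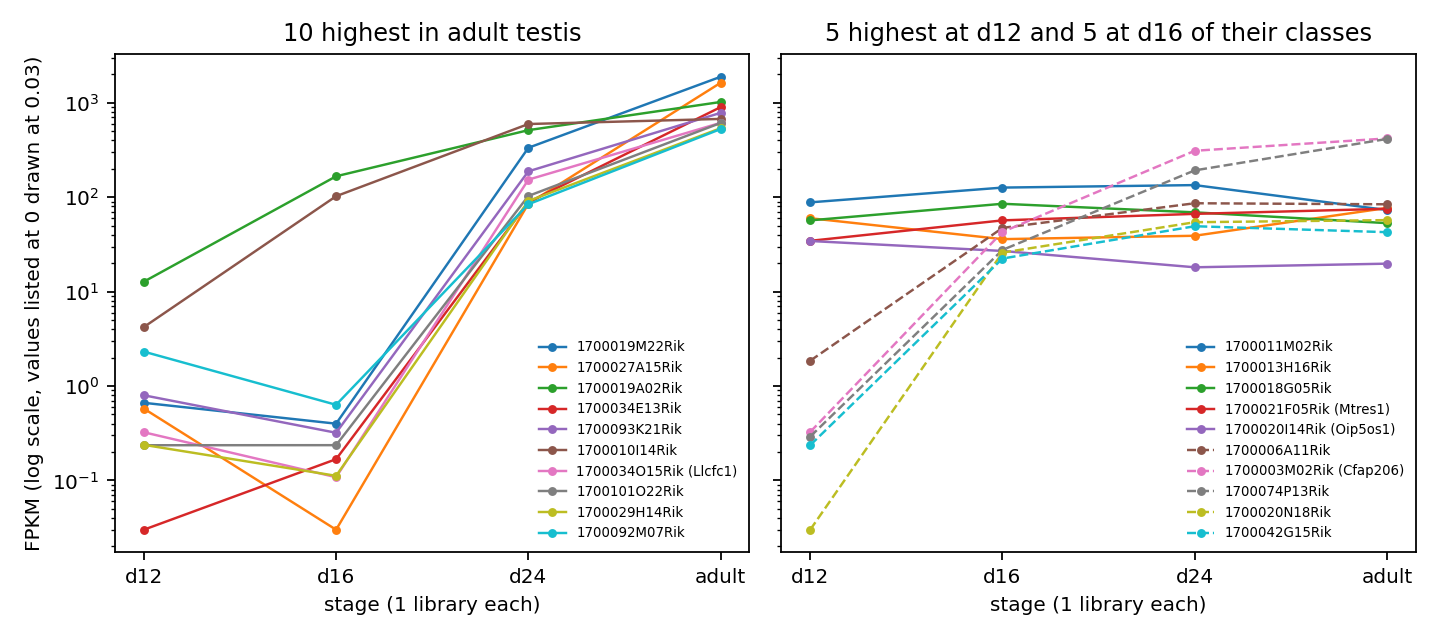
FPKM on a log scale (y axis) by stage (x axis, 1 library each) of the 10 genes highest in adult testis (left) and of the 5 genes highest at d12 and at d16 in the classes that first reached 2 FPKM at these stages (right, d16 class dashed). Values listed at 0 are drawn at 0.03. All 10 genes on the left had at least 84.2 FPKM at d24, whereas 8 of them were under 2 FPKM at d16.

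The 10 genes highest in adult testis had from 527.4 to 1888 FPKM there and made up 29.6% of the summed FPKM of the 341 genes. The highest was 1700019M22Rik, annotated as a noncoding pseudogene of 1 exon (chr12:96046621-96047222, minus strand). It had 0.663 FPKM at d12, 0.399 at d16, 334.0 at d24, then 1888 in the adult library. The adult library was thus 5.65-fold above that of d24 (exact 95% interval 5.46 to 5.86, from implied fragments and for counting error only). At d12 and d16 it rested on 5 and 3 fragments, so nearly all of its signal was seen at d24 and after.

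1700027A15Rik, a long noncoding RNA (chr1:73016036-73025508, plus strand), was listed at 0.576, 0, 85.3 and 1631 FPKM at the 4 stages. Its adult value was 19.1 times the d24 value, the largest such ratio among the 10. It starts 137 bp from Tnp1, the gene of transition protein 1, which replaces histones in elongating spermatids and is read from the opposite strand. The stretch between both annotated starts (chr1:73015899-73016036) is shown because it is common to a coding gene and a noncoding RNA. Both were highest in adult testis. The stretch is read along the strand of 1700027A15Rik. Its first base is thus the start of Tnp1 and its last base that of 1700027A15Rik, whereas the label names the genes in the other order.
1700027A15Rik to Tnp1: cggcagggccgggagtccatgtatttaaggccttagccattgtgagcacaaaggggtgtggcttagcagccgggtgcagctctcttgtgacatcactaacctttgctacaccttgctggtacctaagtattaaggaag
None of the 4 motifs lies in these 138 bases, which hold 3 CpG dinucleotides. Tnp1 had 2.81, 0.563, 460.5 and 4147 FPKM at the 4 stages. Both genes had at d16 their lowest value and in adult testis their highest.

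1700034E13Rik, a coding gene on chromosome 18 with a predicted protein of 108 residues, was listed at 0 at d12 and had 0.168, 88.5 and 900.4 FPKM at d16, d24 and in adult testis. This was 10.2 times its d24 level (exact 95% interval 9.46 to 10.9). 1700101O22Rik, a long noncoding RNA on chromosome 12, had 0.236 FPKM at d12 and d16, 103.1 at d24, then 611.7 in the adult library, a ratio of the last stages of 5.93 (5.45 to 6.46). Both were represented by at most 1 fragment in each library before d24. 1700092M07Rik, a coding gene of chromosome 19 with 86 residues, had 2.31, 0.632, 84.2 and 527.4 FPKM. It counts among the genes first at 2 FPKM at d12 by 11 fragments, with a 95% interval of 1.15 to 4.14 FPKM, and lay below the threshold at d16.

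1700093K21Rik had 0.797, 0.319, 188.0 and 783.0 FPKM, and 1700029H14Rik had 0.238, 0.112, 91.2 and 538.3 FPKM. Llcfc1 (1700034O15Rik), a sperm protein needed for fusion with the egg, had 0.323, 0.108, 153.5 and 613.7 FPKM. These 3 coding genes shared a low d16 value and a higher value in adult testis than at d24. By contrast, 1700019A02Rik had 12.7, 166.6, 513.5 and 1021 FPKM, and 1700010I14Rik was likewise above 100 FPKM at d16. These were the 2 of the 10 genes that were above 2 FPKM at d16, and their adult to d24 ratios were 1.99 and 1.13.

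Of the genes highest in adult testis, 6 of 10 had a higher value at d12 than at d16. All 6 elongating spermatid markers were also higher at d12 than at d16, in sum 13.1 against 4.42 FPKM. Among the 41 genes that first reached 2 FPKM at d24 or in adult testis and had at least 100 FPKM in adult testis, 15 were higher at d12, 18 at d16 and 8 were equal. Over all 197 genes of these classes, 45 were higher at d12, 77 at d16 and 75 were equal. The source of the low values at d12 was not tested.

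The genes of the d12 class had a median of 4.30 FPKM at d12, 10.5 at d16, 33.3 at d24, then 52.0 in the adult library. The highest at d12 were 3 X-linked genes, which are described with the X chromosome. Next came Mtres1 (1700021F05Rik, chr10:43525119-43541041), which protects mitochondrial transcription under stress, with 34.5, 56.8, 66.6 and 75.4 FPKM. Oip5os1 (1700020I14Rik, chr2:119594296-119600746), a conserved long noncoding RNA also known as Cyrano, had 34.4, 26.95, 18.1 and 19.8 FPKM. The expression of these 2 genes varied by about 2-fold over all stages.

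Of the 51 genes in the d12 class, 6 were lower in adult testis than at d12. The same count over all genes is not given here. The d12 class of all genes had a median of 10.2 FPKM at d12 and 10.7 in adult testis. Besides Oip5os1, with a log2 change from d12 to adult of -0.79, the largest decrease among genes with at least 2 FPKM at d12 was that of 1700112H15Rik, a long noncoding RNA on chromosome 1. It had 2.16, 0.206, 0.644 and 0.577 FPKM, and its log2 change was -1.74. The next were 1700011M02Rik at -0.27, Fyb2 (1700024P16Rik), an adaptor protein of T cell signalling, also at -0.27, and 1700025G04Rik at -0.17. Fyb2 had 7.78, 9.63, 7.19 and 6.44 FPKM, and 1700025G04Rik had 4.30, 4.08, 2.60 and 3.81 FPKM. These last changes were small, and 1700112H15Rik was the only gene of the d12 class under 2 FPKM in adult testis.

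Genes of the d16 class had a median of 0.305 FPKM at d12, 6.25 at d16, 52.9 at d24, then 59.5 in the adult library. The highest at d16 was 1700006A11Rik, a coding gene of chromosome 3, with 1.85, 47.3, 86.3 and 84.1 FPKM. Cfap206 (1700003M02Rik), a protein of the flagellar axoneme, had 0.326, 42.9, 310.5 and 419.6 FPKM. 1700074P13Rik, a coding gene of chromosome 6, had 0.291, 27.6, 192.5 and 414.4 FPKM. All 3 had their largest fold between d12 and d16, and Cfap206 and 1700074P13Rik were higher again at both later stages. A large fold from d12 to d16 is in part given by the choice of genes under 2 FPKM at d12 and highest at d16. The long noncoding RNAs 1700020N18Rik and 1700042G15Rik had 25.9 and 22.4 FPKM at d16, 54.3 and 49.3 at d24 and 57.2 and 42.6 in adult testis. The transcribed pseudogene 1700123L14Rik had 0.234, 19.5, 307.8 and 428.9 FPKM.

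Genes of the d24 class had a median of 0.0478 FPKM at d12, 0.0870 at d16, 11.0 at d24, then 43.9 in the adult library. The top 5 of the class by d24 FPKM were 1700019M22Rik, 1700093K21Rik, 1700049L16Rik, Llcfc1 and 1700012B07Rik. 1700049L16Rik, a transcribed pseudogene of chromosome 10, had 0.396, 1.98, 162.8 and 381.2 FPKM, so that 20 fragments placed it just under the threshold at d16. 1700012B07Rik, a coding gene of chromosome 11, had 0.850, 0.313, 115.6 and 469.5 FPKM. In this class 161 of 168 genes were higher in adult testis than at d24, 130 at least 2-fold and 57 at least 4-fold. These were 95.8%, 77.4% and 33.9% of the class, against 85.6%, 55.1% and 18.7% of the 1510 genes of the table in the d24 class, so higher values in adult testis were common to the class as a whole.

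The ratio of adult to d24 FPKM differed by class. Its median was 1.14 for the d12 class, 1.37 for the d16 class and 3.09 for the d24 class, over genes with at least 2 FPKM at d24. For all genes of the same classes the medians were 0.944, 1.15 and 2.23. The order of the classes was thus the same as for all genes, with higher values in each class. The d24 value also placed a gene in its class, so these ratios are a description.

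In the values as deposited, few genes were lower in adult testis than at d24. Of the 269 genes with at least 2 FPKM at d24, 236 were higher in adult testis, against 5666 of 11761 over all genes. These numbers depend on the scaling between libraries, which is not given in the sources. Of the 5 largest decreases among genes with at least 2 FPKM at d24, 1700012D14Rik, a long noncoding RNA of chromosome 7, had 0.127, 1.53, 2.75 and 0.713 FPKM. Its adult value was 0.259 of the d24 value (exact 95% interval 0.0672 to 0.720). 1700069L16Rik, a long noncoding RNA of chromosome 5, was listed at 0 at d12 and had 0.455, 8.53 and 4.46 FPKM. The ratio here was 0.523 (0.335 to 0.790). These 2 genes were low and rested on 4 and 28 fragments in the adult library. 1700011M02Rik had an adult to d24 ratio of 0.544 (0.476 to 0.621). The coding gene 1700065D16Rik had 0.203, 1.63, 9.68 and 7.08 FPKM, and Rubcn (1700021K19Rik), an inhibitor of autophagy, had 6.02, 8.55, 24.8 and 19.1 FPKM.

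In the adult class the highest values were low, at most 18.6 FPKM. 1700020A23Rik, a coding gene of chromosome 2, had 0.341, 0, 1.80 and 18.6 FPKM. The long noncoding RNAs 1700034G24Rik, 1700096J18Rik and 1700022E09Rik were listed at 0 at d12 and d16, had 1.08, 0.602 and 1.54 FPKM at d24 and 15.3, 11.6 and 10.8 FPKM in adult testis. Their adult to d24 ratios were 14.1 (9.30 to 22.8), 19.3 (8.23 to 55.2) and 7.01 (3.64 to 14.4). All 3 intervals lie above 2, although few fragments stand behind the d24 values. By the rule of the class these genes were under 2 FPKM at d24, and they were chosen for high adult values. High ratios are thus in part given by the choice. 1700048M11Rik had 0.661, 0.662, 1.88 and 9.98 FPKM. Of the 29 genes of this class, 25 are noncoding and 3 coding.

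At the threshold itself, Aldh3b3 (1700055N04Rik), an aldehyde dehydrogenase, lay just above 2 FPKM in adult testis with 2.02 FPKM, and 1700001D01Rik just below with 1.98 FPKM. Their 95% intervals, 1.41 to 2.80 and 0.952 to 3.65 FPKM, both include 2 FPKM. For a transcript of 1 kb, 2 FPKM equals 25.0 fragments at both d12 and d16, 43.9 at d24, then 17.8 in the adult library. The limit that 0 fragments allows (3 fragments) is 0.240 FPKM at d12 and d16, 0.137 at d24, then 0.336 in the adult library for such a transcript. A value listed at 0 therefore sets only a limit, which is higher for the many shorter transcripts of these genes.

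The 14 X-linked genes were split into early and late ones, with none first reaching 2 FPKM at d16. At d12 5 genes had at least 2 FPKM, 7 first reached it at d24, and 2 did so in no library. Of all 1042 X-linked genes of the table, 463 were in the d12 class, 8 in the d16 class and 113 in the d24 class. The long noncoding RNA 1700011M02Rik (chrX:102908905-102909651) overlaps a gene on the opposite strand and was the highest of all 341 genes at d12. It had 88.2 FPKM at d12, 126.5 at d16, 134.4 at d24, then 73.2 in the adult library. 1700018G05Rik (chrX:102928372-102929107), a long noncoding RNA close to it on the same strand, had 56.8, 85.2, 69.1 and 53.1 FPKM. Both were lowest in adult testis and changed by less than 2-fold over the 4 stages.

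1700013H16Rik, a coding X-linked gene, had 59.9, 35.9, 39.0 and 77.0 FPKM and was thus lowest at d16. 1700080O16Rik, also coding, had 2.36, 1.27, 10.3 and 22.5 FPKM and was lowest at d16 as well. The long noncoding RNA Tslrn1 (1700019B21Rik) had 7.60, 11.9, 22.7 and 32.7 FPKM, higher at each later stage. The early X-linked genes therefore did not share a course.

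Of the late X-linked genes, 1700003E24Rik, a noncoding pseudogene with 2 near copies, had 0.157 FPKM at d12, 94.4 at d24, then 472.3 in the adult library. At d16 its listed value of 3.29e-06 FPKM is less than 1 fragment. 1700010D01Rik had 0.320, 0, 83.4 and 284.7 FPKM, and 1700020N15Rik was listed at 0 until 21.8 FPKM at d24, then 95.3 in the adult library. Each of these 2 has 1 near copy. H2al1m (1700012L04Rik), a histone H2A variant of a family known from spermatids, had 0.304, 0.305, 21.3 and 81.6 FPKM, has 6 near copies and lies within Xk on the same strand. For these 4 genes, sharing of reads between copies makes the split of fragments uncertain. Tcp11x2 (1700008I05Rik), with no near copy, was listed at 0 at d12 and had 0.0901, 21.1 and 53.4 FPKM, and 1700111N16Rik was listed at 0 until 2.77 FPKM at d24, then 10.5 in the adult library. These late X-linked genes were chosen as first reaching 2 FPKM at d24, so low values before d24 are given by the choice. Their alike course, with and without copies, therefore says nothing on how reads were split between copies.

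Genes with a newer name and those still known by their clone differed mainly in class, as 46 of 50 and 82 of 289 are coding. The 50 genes with a newer name had an adult median of 65.8 FPKM, and the 289 others 22.6 FPKM. Among coding genes alone the order was the reverse, with 71.1 FPKM for the named and 82.2 FPKM for the others. All 50 reached 2 FPKM in adult testis, against 244 of the 289, and among coding genes all 46 against 80 of 82. The names include 7 proteins of the Cfap group, which belong to cilia and flagella. Their median FPKM was 0.763 at d12, 7.27 at d16, 81.1 at d24, then 163.7 in the adult library. Cfap299 was the first to reach 2 FPKM, at d12 with 2.78 FPKM, and had 41.5, 261.1 and 316.0 FPKM later. Cfap126, Cfap161 and Cfap206 followed at d16, and Cfap157, Cfap77 and Cfap97d1 at d24. Cfap77 stayed lowest in adult testis with 5.78 FPKM, and Cfap97d1 was listed at 0 at d16 and had 372.9 FPKM in adult testis. Genes of 1 organelle were thus placed at 3 different stages, of which d12 rests on Cfap299 alone.

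Other named genes have known roles at particular steps. Majin (1700123I01Rik), which tethers telomeres to the nuclear envelope in meiosis, had 4.85, 16.02, 11.5 and 10.7 FPKM and was highest at d16. H2bl1 (1700024P04Rik), a histone H2B variant, was listed at 0 at d12 and d16 and had 14.7 FPKM at d24, then 112.4 in the adult library. Stpg4 (1700011E24Rik) had 0.0943, 16.4, 123.8 and 141.4 FPKM. Majin, H2bl1, Stpg4 and the Cfap genes other than Cfap206 were chosen for their names after the values were seen.

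**Figure D4:**
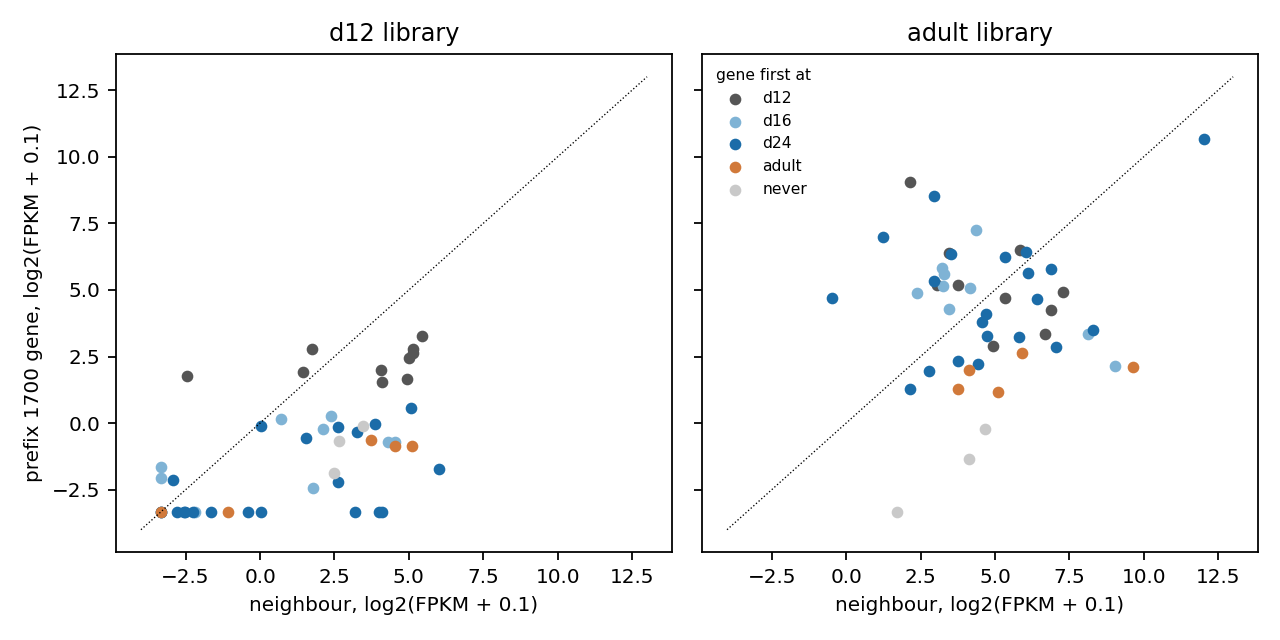
log2(FPKM + 0.1) of prefix 1700 genes (y axis) against that of their head-to-head neighbours (x axis) in the d12 library (left) and the adult library (right), for 48 pairs with both values. Colours give the stage at which the prefix 1700 gene first reached 2 FPKM, and the dotted line marks equal values. The neighbour was higher in 39 of 48 pairs at d12 and in 29 in adult testis. Pairs in which both genes have prefix 1700 are counted once from each side.

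A start within 1000 bp of the start of a gene on the opposite strand was found for 52 of the 341 genes. A further 60 overlap a gene on the opposite strand, 12 overlap one on the same strand, and 215 do neither. Positions were not counted for all genes, so these numbers do not show whether such positions are frequent or rare here. The head-to-head neighbour is protein coding for 46 of the 52, and 48 neighbours have values. Of these, 30 neighbours were at 2 FPKM or more at d12, as were 44.9% of all genes and 50.8% of all coding genes. Of the 30, 21 stood beside a prefix 1700 gene that reached 2 FPKM later or not at all. In 17 of 48 pairs both genes first reached 2 FPKM at the same stage. Ccdc192 with 1700066O22Rik and 1700018B08Rik with 1700030M09Rik are pairs of prefix 1700 genes and are counted once from each side. Most of these neighbours were thus in the d12 class, whereas 11 of the 52 prefix 1700 genes were, so different stages within a pair are in part given by these counts.

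In 13 pairs the neighbour belonged to the d12 class and the prefix 1700 gene to the d24 or adult class. The median FPKM of these neighbours was 14.4, 11.6, 18.4 and 21.4 at the 4 stages, and that of the prefix 1700 genes 0.449, 0.553, 9.15 and 7.08. One such pair is Cfap97d1 and Dusp3, a phosphatase gene, with 43 bp between their starts. Dusp3 had 5.98, 4.66, 4.68 and 7.60 FPKM, while Cfap97d1 had 0.114, 0, 81.1 and 372.9 FPKM. Tnp1 and 1700027A15Rik are also among the 13, because Tnp1 had 2.81 FPKM at d12.

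Of the 5 genes with the largest decreases from d24 to adult testis, 1700065D16Rik and Rubcn have head-to-head neighbours of the d12 class. Other genes lower in adult testis than at d24 also have such neighbours, with other courses. Trim35, beside 1700001G11Rik, was highest at d12 with 23.0 FPKM and had 9.47 in adult testis. 1700065D16Rik starts 285 bp from Atr, a kinase of the DNA damage response, which had 64.4, 127.7, 161.5 and 132.9 FPKM. Rubcn starts 148 bp from Fyttd1, an mRNA export factor, which had 35.0, 85.4, 133.6 and 117.6 FPKM. In both pairs the gene bodies overlap, and both genes were highest at d24.

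Of pairs with a late coding neighbour, 1700027I24Rik starts 31 bp from Acrv1, the gene of an acrosomal protein. It was listed at 0 at d12 and d16 and had 4.25 FPKM at d24, then 11.1 in the adult library, when Acrv1 had 105.7 and 310.6. 1700066N21Rik starts 100 bp from Cabs1, a calcium-binding protein of spermatids, and had 0, 0, 1.29 and 4.20 FPKM, when Cabs1 had 0.375, 0.107, 72.0 and 799.3. 1700072B07Rik starts 7 bp from Tbc1d21 and had 0, 0, 0.614 and 6.05 FPKM, when Tbc1d21 had 0, 0, 16.2 and 60.2. In these 3 pairs, chosen after the values were seen, both genes were higher at d24 than before and higher again in adult testis, and the noncoding RNA was the lower of both. The order of levels was not the same in all pairs of this kind. Of 8 pairs of a noncoding prefix 1700 gene and a coding neighbour first at d24 or in adult testis, the noncoding RNA was lower in adult testis in 5 and higher in 3. The latter include 1700109G14Rik, with 128.3 FPKM beside 2.27 for Arl11, and 1700056E22Rik, with 80.7 beside 11.4 for Dusp10.

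**Figure D5:**
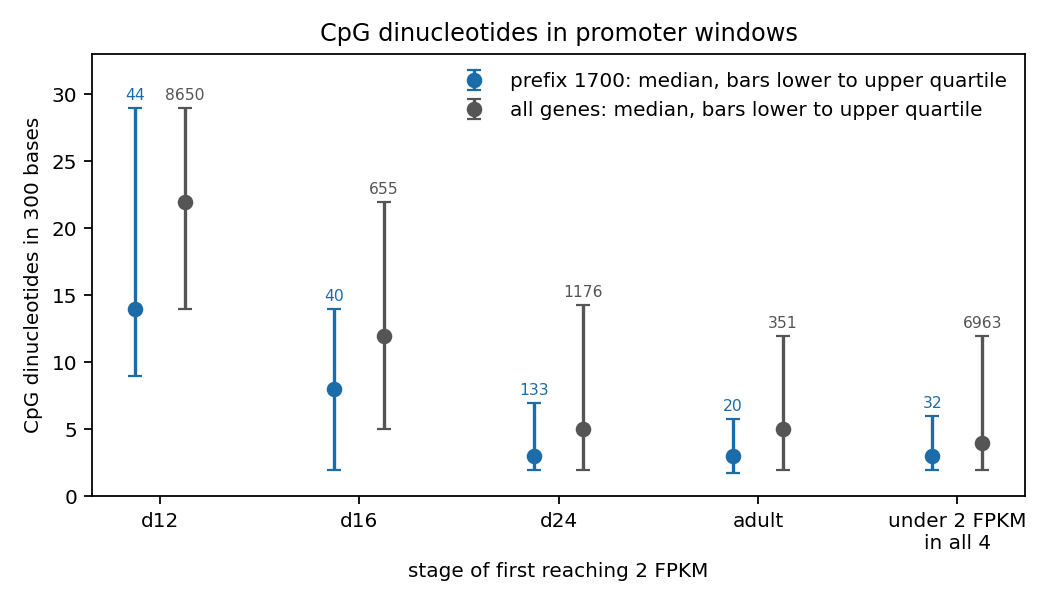
CpG dinucleotides in promoter windows of 300 bases (y axis, median with bars from the lower to the upper quartile) by the stage of first reaching 2 FPKM (x axis), for prefix 1700 genes and all genes, with the number of windows above each bar. The median of the prefix 1700 genes was 14 in the d12 class and 3 in the d24 class.

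Promoter windows of late genes held few CpG dinucleotides. The median number in 300 bases was 4 for the 269 prefix 1700 genes with a window and 14 for all genes, and it was also 4 for genes with the prefix of 4933402N03Rik. It was 14 in the d12 class, 8 in the d16 class, 3 in the d24 class, 3 in the adult class and 3 in genes under 2 FPKM in all libraries. For all genes of the same classes it was 22, 12, 5, 5 and 4. The order by stage was thus shared with all genes, and the prefix 1700 genes had the lower number in each class. The X-box letters were found in 1 of 44 windows of the d12 class, 3 of 40 of the d16 class, 10 of 133 of the d24 class, 1 of 20 of the adult class and 2 of 32 of the genes under 2 FPKM in all libraries. Over all genes of these classes the shares were 1.08%, 3.66%, 3.40%, 2.28% and 0.761%, so a higher share after d12 was seen there too.

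The next sequences show a promoter of an early and of a late noncoding RNA, with CpG dinucleotides in capitals. They were picked after the values were seen because their counts, 15 and 2, lie near the medians of their classes.
Oip5os1 (1700020I14Rik, d12 class, chr2:119594046-119594345, plus strand): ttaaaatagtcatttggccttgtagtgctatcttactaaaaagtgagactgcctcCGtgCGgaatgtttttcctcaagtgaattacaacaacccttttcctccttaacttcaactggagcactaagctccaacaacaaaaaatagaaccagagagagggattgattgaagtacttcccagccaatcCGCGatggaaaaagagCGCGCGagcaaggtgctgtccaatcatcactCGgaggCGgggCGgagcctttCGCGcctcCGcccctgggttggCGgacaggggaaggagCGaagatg
1700101O22Rik (d24 class, chr12:7380281-7380580, minus strand): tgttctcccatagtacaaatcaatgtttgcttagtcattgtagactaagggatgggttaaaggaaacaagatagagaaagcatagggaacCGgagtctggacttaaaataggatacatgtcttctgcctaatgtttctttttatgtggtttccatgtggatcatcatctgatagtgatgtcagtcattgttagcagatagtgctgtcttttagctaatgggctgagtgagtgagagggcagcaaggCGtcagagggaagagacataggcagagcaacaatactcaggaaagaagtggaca
The first is from a gene with 34.4 FPKM at d12 and 19.8 in adult testis, and the second from a gene with 0.236 FPKM at d12 and 611.7 in adult testis. Not every early gene has such a window, and that of 1700018G05Rik, with 56.8 FPKM at d12, holds 5 CpG dinucleotides.

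The genes that share the prefix of 4933402N03Rik, another clone library of adult testis, also had their largest class at d24. Of these 110 genes, 18 first reached 2 FPKM at d12, 14 at d16, 37 at d24, then 16 in the adult library, and 25 did not. The share first at d24 was 33.6%, against 49.3% of the prefix 1700 genes. The adult median was 7.63 FPKM, against 26.6. Within the classes, the coding genes of that prefix had an adult median of 46.1 FPKM and the noncoding ones 4.80, against 77.0 and 12.3 for prefix 1700 genes. The 1397 genes of other prefixes were first at 2 FPKM at d24 in 15.2% and under it in all libraries in 49.7%. The prefix 1700 genes thus had the largest share in the d24 class of these 3 sets, in single libraries and without a test.

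Reads of near-identical genes could not be told apart for 11 prefix 1700 genes, which match a transcript of another gene over 80% or more of their length with 95% or more identity. 1700091H14Rik has 15 such copies, H2al1m 6 and 1700001F09Rik 5. All 11 had at least 2 FPKM at d24, and 4 of them first reached it at d16 and 7 at d24. Without these genes, 161 of the 168 genes of the d24 class were left.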

How the data were processed

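Testis RNA-seq at 4 stages was used, with 1 library per stage, and the 4 H3K27Ac ChIP-seq samples were not analysed here. FPKM values deposited by the authors came from strand-specific read pairs. They mapped these to GRCm38 (mm10) using TopHat2 2.1.0 with Bowtie 1.1.2 and kept 1 alignment per pair. They then ran Cuffdiff (Cufflinks 2.2.1) with corrections for multi-reads and bias. With 1 alignment kept, a read pair of near copies was placed at 1 of them during mapping. The scaling between libraries is not given in the sources used here.

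Genes and lists were chosen with earlier results of these data known. Lengths, classes and positions came from RefSeq release 108 of GRCm38.p6. The value of 1 fragment was recovered from low FPKM values of 15416 genes with 1 curated transcript, of which between 91.4% and 92.3% were whole within 0.05. This implied 9320780 fragments on genes at d12 and 24966400 at d24, the lowest and the highest library. It also implied the size value by which each library was divided. That was 12523500 at d12 and 12500700 at d16, above the fragments on genes. At d24 it was 21970100 and in the adult library 8917180, below the fragments on genes (12733300 in the adult library). The libraries were thus not all divided by their own fragments on genes. Exact 95% intervals cover counting error only and are given where the longest transcript of a gene has up to 1.1 times the length of the shortest. The recovery and the classes were tested on simulated data. No test between stages was made. Near copies came from blastn 2.17.0 with an e-value of at most 1e-10. Other steps used python 3.11.15 with pandas 2.3.3, numpy 2.4.6 and scipy 1.17.1.

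Named genes are the 10 highest in adult testis, the 5 highest of each class, the 5 largest decreases from d12 and from d24 to adult, the 5 highest noncoding genes, X-linked genes of at least 10 FPKM, those nearest 2 FPKM in adult testis, and head-to-head neighbours of these. Others are named as examples of sequences, counts or near copies. Alternatives were thresholds of 1 and 5 FPKM, pseudocounts of 0.01 and 1 FPKM, no filter on low values, rescaled libraries and smaller gene sets.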

Additional observations from a re-analysis of the deposited data

How the results depend on the processing

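No paired analysis was possible because each stage has 1 library, and for the same reason no library could be left out. Of 98 alternative values, 78 stayed within 1.5-fold. Only the median log2 changes among them could change direction, and none did. With a threshold of 5 FPKM, 22 genes were first at d12 (and so at 5 FPKM there), 50 in adult testis and 73 in none, and with 1 FPKM 24 in none. With 95% intervals clear of 2 FPKM, which leaves out genes without fragments, 32 genes were first at d12, 27 at d16, 7 in adult testis and 24 in none. Among genes that passed the filter of 1 FPKM the median log2 changes were 2.52, 4.16 and 1.15 over the 3 steps. A pseudocount of 1 FPKM gave 1.44 from d12 to d16 and 2.56 from d16 to d24 and left 1 gene 2-fold lower from d24 to adult, and a pseudocount of 0.01 gave 4.97 from d16 to d24. Without a filter on low values the median from d12 to d16 was 0.00195 and 33 genes were 2-fold lower. When the FPKM sums of the libraries were made equal, 10, 5 and 4 genes were 2-fold lower over the 3 steps, and with upper quartiles 11 and 3 over the first and second. From d24 to adult, 123 genes were at least 2-fold higher with equal sums and 151 with upper quartiles, against 180 as deposited. The median log2 changes of that step were then 0.68 and 0.99, against 1.15. Rescaling to the sum moved the median log2 change of all genes from 0.13 to -0.52 from d16 to d24 and from 0.01 to -0.48 from d24 to adult, and the prefix 1700 genes stayed 4.31 and 1.16 above it.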
